A study of Mus musculus with 6 samples.

Results

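The genes described here are 10 components of the MyD88 and TRIF adaptor cascade, which were taken by gene symbol (Myd88, Tirap, Ticam1, Ticam2, Irak1, Irak2, Irak4, Traf6, Map3k7 and Tollip) from the 24346 symbols of the expression table. All 10 were found, and 9 had a mean of at least 1 FPKM (fragments scaled to transcript length and library size) over the 6 libraries and were tested, as were 11603 genes in all. Total RNA came from primary articular chondrocytes, the cells that make joint cartilage, of ICR mice at postnatal day 4. In 3 libraries the cells had been stimulated with Sema4D (semaphorin 4D), which is known to bind plexin-B receptors, and 3 control libraries came from the same kind of cells without it. No source used here gives the dose, the duration, the origin of the protein or the control medium. Nor do the labels tell whether replicates 1 to 3 came from separate animals or cultures, so that p-values reflect only the spread between libraries, which may be technical.

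Toll-like receptors and the receptors of the IL-1 family carry an intracellular TIR domain, which recruits an adaptor protein when the receptor is engaged. MyD88 then assembles the kinases IRAK4, IRAK1 and IRAK2, which hand the signal to the ubiquitin ligase TRAF6 and the kinase TAK1, and from there to NF-kappaB and the MAP kinases. TRIF, the adaptor used by TLR3 and by internalised TLR4, opens another route to the kinases TBK1 and IKK-epsilon and the transcription factor IRF3. Articular chondrocytes are known to respond to IL-1 and to Toll-like receptor ligands by making matrix-degrading enzymes.

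Of the 9 tested genes 4 were higher with Sema4D and 0 were lower by limma at an adjusted p under 0.05, so 44.4% were called, against 46.7% of all tested genes in either direction, 24.5% higher and 22.2% lower. The share called was therefore near that of the whole table. The median log2 fold change was 0.15 for the 9 genes and 0.006 for all tested genes. Only Myd88 and Irak2 changed by over 1 on the log2 scale, while the fold changes of the other 7 lay between 0.03 and 0.25. Of all tested genes 3.39% were called higher with a log2 fold change above 1. Fold changes here are on the scale of log2(FPKM + 1), which understates those of low genes, and each is Sema4D over control.

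**Figure D1:**
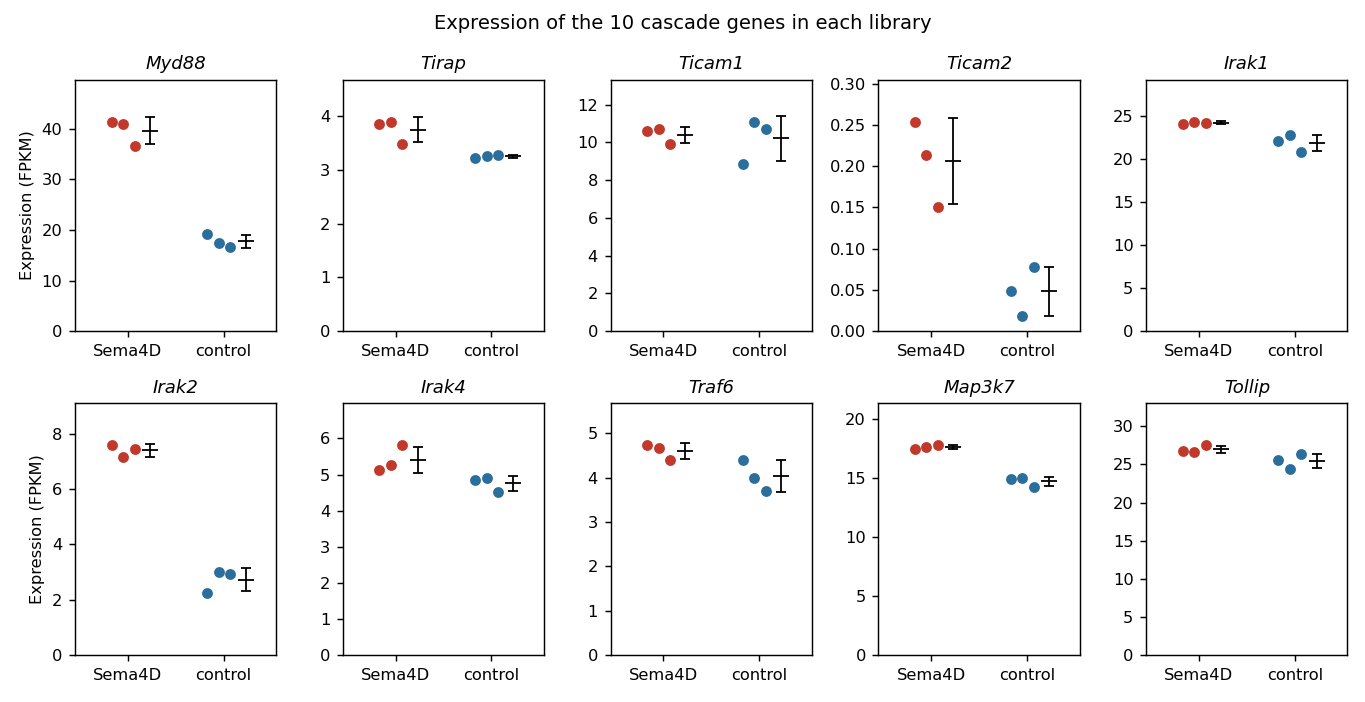
Expression in FPKM (y axis, from 0, own scale in each panel) of the 10 genes in the 3 Sema4D libraries (red) and the 3 control libraries (blue), with the mean and SD in black beside each group. Myd88 lay at 36.5 to 41.4 FPKM with Sema4D, against 16.6 to 19.2 FPKM in control, while the groups of Ticam1 overlapped.

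Sequences before an annotated transcript start of 3 of the genes are shown because they differ both in how far the gene moved and in the motifs they hold: Myd88 and Irak2 had the largest changes and Map3k7, which encodes TAK1, a small one. They are RefSeq windows on GRCm38.p6, the assembly of mm10, each running 5′ to 3′ on the gene's strand from 250 to 31 bases before the transcript start that RefSeq's promoter table uses. For Myd88 (chr9:119340049-119340268, minus strand) and Irak2 (chr6:113638217-113638436, plus strand) that start is also the outer end of the gene, and the whole window is printed. For Map3k7 it is position 31964107 on the plus strand of chromosome 4, which lies inside the gene as RefSeq draws it, from 31963492 on. The Map3k7 window is therefore upstream of that transcript start but not of the whole gene, and only the 30 bases around its match are printed (chr4:31964005-31964034). Capitals mark matches to the motifs searched.
Myd88: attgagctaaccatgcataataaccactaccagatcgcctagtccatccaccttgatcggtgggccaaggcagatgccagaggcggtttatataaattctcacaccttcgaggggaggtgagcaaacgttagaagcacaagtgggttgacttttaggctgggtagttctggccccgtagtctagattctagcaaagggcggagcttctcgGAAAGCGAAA
Irak2: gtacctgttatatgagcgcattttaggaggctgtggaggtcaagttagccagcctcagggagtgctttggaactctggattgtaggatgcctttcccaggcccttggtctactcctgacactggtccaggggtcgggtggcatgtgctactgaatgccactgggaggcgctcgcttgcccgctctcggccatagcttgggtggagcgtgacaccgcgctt
Map3k7: ccccgggtcaGGAAATTCCCcgctcgggtc

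Both strands of each window were searched for the NF-kappaB consensus and for GAAA followed after any 2 bases by GAAA, the paired repeat that IRF-family factors are known to bind. The Myd88 window held GAAAGCGAAA on the gene's strand, beginning 40 bases before the start, and no match to the NF-kappaB consensus. Map3k7 had the reverse arrangement, with GGAAATTCCC beginning 92 bases before the start at 31964107 as a match on the opposite strand and no match to the paired repeat. Neither motif was found in the Irak2 window, although Irak2 had the largest log2 fold change of the 9 genes, which says only that these letters are not in this window. Windows were matched for 9 of the 10 genes (11 windows), and 1 window held each motif. Over 32851 windows of the same length, 3.45% held the NF-kappaB consensus and 2.63% held the paired GAAA repeat. The GC content of the whole windows was 50% for Myd88, 58.2% for Irak2 and 67.3% for Map3k7.

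Before the values of single genes, a few facts hold for all libraries. The step size of low FPKM values put the depth at 1.45e+07 to 1.78e+07 fragments for Sema4D libraries and 1.32e+07 to 1.73e+07 for control libraries. Across tested genes, which are not independent replicates, Pearson's r of log2 values lay between 0.983 and 0.991 for libraries of the same group and between 0.935 and 0.942 for libraries of different groups. The cartilage markers Col2a1 and Acan stood at 8396 to 9131 and 332 to 347 FPKM with Sema4D, against 10011 to 10952 and 554 to 573 FPKM in control, and all 9 tested chondrocyte markers fell (8 after quantile normalization, where Col2a1 did not pass, limma adjusted p = 0.46), their summed level being 11447 to 12376 FPKM with Sema4D and 14240 to 15369 FPKM in control. Since these are bulk samples, fewer cells of a type and less RNA per cell cannot be told apart.

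Macrophages are rich in Toll-like receptors and their adaptors, so the markers of that lineage are given beside the cascade. The summed level of the 11 macrophage and osteoclast markers was 92.3 to 97.8 FPKM in Sema4D libraries and 81.6 to 89.2 FPKM in control libraries, most of it from the protease gene Ctsk, which rose (0.34, limma adjusted p = 2.51e-05). Lyz2 (-0.46) and Tyrobp (-0.70) fell, Cd68 and Acp5 did not pass the threshold, and 6 of the 11 had a mean under 1 FPKM. Tyrobp, at a mean of 0.636 FPKM with Sema4D, passed the filter on low values only through the control libraries. Ptprc, the pan-leukocyte CD45 gene, was at most 0.119 FPKM with Sema4D and 0.127 FPKM in control, and Aif1 was at most 0.0993 and 0.0864 FPKM. Adgre1 lay at 0.563 to 0.75 FPKM with Sema4D and 0.0784 to 0.268 FPKM in control, and Fcer1g, an Fc receptor subunit gene, at 0.875 to 1.63 FPKM with Sema4D and 0 to 0.536 FPKM in control, so both were above control in every Sema4D library. The 7 neutrophil and mast cell markers summed to 0.35 to 0.862 FPKM with Sema4D and 0.0359 to 0.0745 FPKM in control. Of these, Kit was at 0.19 to 0.324 FPKM with Sema4D and 0.0359 to 0.0745 FPKM in control, S100a8 (at most 0.624 FPKM) and Mpo (at most 0.0475 FPKM) were each above 0 in 2 of the 3 Sema4D libraries and listed at 0 in control, and the other 4 were listed at 0 in all libraries. The 6 endothelial markers summed to 0.175 to 0.28 FPKM with Sema4D and 0.0997 to 0.161 FPKM in control. Of 8 fibroblast and synovial markers, 4 rose (Dcn, Lum, Pdpn and Pdgfra) and Thy1 fell, with sums of 5630 to 5833 FPKM with Sema4D and 5415 to 5761 FPKM in control. The 6 osteoblast markers summed to 3.4 to 3.54 FPKM with Sema4D and 4.36 to 5.1 FPKM in control, where only Alpl was tested and it fell, and the 6 muscle markers to 4.07 to 5.41 and 5.48 to 6.27 FPKM. What part these other cells have in the results below was not tested.

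The adaptors come first in the cascade. Myd88, the adaptor shared by nearly all Toll-like receptors and by the IL-1 receptor family (chromosome 9, 119335934 to 119340018), was at 41.4, 41.0 and 36.5 FPKM in Sema4D replicates 1 to 3, against 19.2, 17.5 and 16.6 FPKM in control replicates 1 to 3. Every Sema4D library was above every control library, and the means were 39.6 ± 2.69 and 17.8 ± 1.29 FPKM (SD, n = 3 each). The ratio of means was 2.23, and the log2 fold change was 1.12 (SE 0.064, 95% interval 0.97 to 1.26, limma adjusted p = 2.25e-06). Myd88 has 2576 exon bases in GENCODE M21, of which 290 are also in exons of Acaa1a on the opposite strand, and no source used here gives the strand setting of the quantification. Acaa1a, a peroxisomal thiolase gene, was also higher, at 62.1 ± 2.69 FPKM with Sema4D and 35.0 ± 1.64 FPKM in control, and the part of reads from the shared bases in the Myd88 values was not tested.

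Ticam1, which encodes TRIF (chromosome 17, 56269462 to 56276767), is the signalling adaptor of the other route. It had 10.6, 10.7 and 9.90 FPKM in the Sema4D libraries, against 8.86, 11.1 and 10.7 FPKM in the control libraries. The groups overlapped, and the lowest of the 6 values was that of control replicate 1. Its log2 fold change was 0.03 (SE 0.077, 95% interval -0.15 to 0.20, limma adjusted p = 0.804), so the interval held no change above 0.20 in either direction on the log2 scale. Without control replicate 1 the estimate was -0.06 and after quantile normalization it was -0.03, neither past the threshold.

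The sorting adaptors, which bring the signalling adaptors to the membrane, were scarcer than the adaptors they serve. Tirap, which bridges MyD88 to TLR2 and TLR4 (chromosome 9, 35184391 to 35200291), had 3.86, 3.90 and 3.48 FPKM with Sema4D, against 3.22, 3.26 and 3.28 FPKM in control. The groups did not overlap, but the difference was not past the threshold (0.16, 95% interval 0.02 to 0.30, limma adjusted p = 0.0599). Leaving out Sema4D replicate 3, the lowest of its group, gave 0.20 with an adjusted p of 0.0362, and the alternatives together spanned 0.0273 to 0.163. In its exons Tirap shares bases with Srpr on the opposite strand and with an antisense transcript, Srpr being at 76.5 FPKM with Sema4D and 82.5 FPKM in control.

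Ticam2, whose product TRAM links TRIF to TLR4, was near the limit of detection. It was listed at 0.254, 0.214 and 0.151 FPKM in the Sema4D libraries, against 0.0484, 0.0187 and 0.0779 FPKM in the control libraries. The Sema4D values were all above the control values. From the estimated depth and the longest transcript, these correspond to about 19, 14.9 and 9.20 fragments with Sema4D and 2.68, 1.36 and 5.48 fragments in control. It was left out of the test by the filter on low values, and with no filter its log2 fold change was 0.20 (limma adjusted p = 0.00942). At values this low the scale of FPKM + 1 shrinks the change, and the ratio of means was 4.27. The exons of Ticam2 overlap those of Tmed7 on the same strand by 838 of 5792 bases, and Tmed7, at 42.5 ± 1.45 FPKM with Sema4D and 43.4 ± 0.583 FPKM in control, was far more abundant in both groups, so fragments assigned to Ticam2 are uncertain.

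Within each library the balance of the 4 adaptors can be read without any scaling across libraries. Their summed level was 56.1, 55.8 and 50.1 FPKM with Sema4D, against 31.3, 31.8 and 30.7 FPKM in control. Of that sum Ticam1 made up 18.9%, 19.1% and 19.8% in the Sema4D libraries, against 28.3%, 34.8% and 34.9% in the control libraries, and Myd88 73.4% ± 0.405 and 56.8% ± 3.90 (SD, n = 3 each). In FPKM Ticam1 itself overlapped between groups (means 10.4 with Sema4D and 10.2 in control), while Myd88 raised the sum (39.6 and 17.8). The share of Ticam1 was lower by 13.4 percentage points, and the groups of this share did not overlap. In an exact two-sided permutation test p was 0.1, which is the smallest that 3 libraries against 3 can give, and it stayed 0.1 after Benjamini-Hochberg adjustment over the 2 shares tested.

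**Figure D2:**
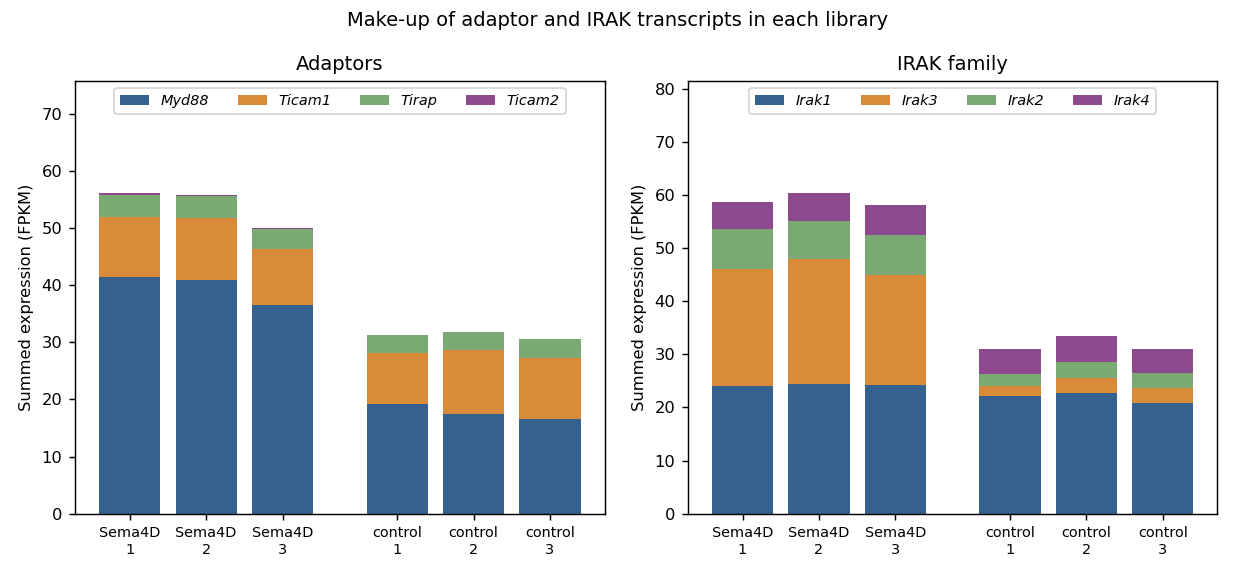
Stacked expression in FPKM (y axis) of the 4 adaptor genes (left) and of Irak1, Irak3, Irak2 and Irak4 (right) in each Sema4D and control library, Sema4D on the left. The Myd88 and Irak3 segments are taller in every Sema4D library, while the Ticam1 and Irak1 segments differ little in height.

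The IRAK kinases bind to MyD88 through death domains. Irak2, whose product sustains the signal after IRAK1 is used up (chromosome 6, 113638467 to 113695026), had 7.58, 7.15 and 7.46 FPKM in the Sema4D libraries, against 2.23, 3.01 and 2.93 FPKM in the control libraries. The groups lay far apart, and the means were 7.40 ± 0.223 and 2.72 ± 0.43 FPKM (SD, n = 3 each). This was the largest log2 fold change among the tested genes of the cascade, 1.18 (SE 0.086, 95% interval 0.98 to 1.38, limma adjusted p = 1e-05). Mouse Irak2 and Irak1 have several transcripts, and the values, given per gene, do not separate them. Irak2 shares 196 exon bases with Gm43963 on the opposite strand, and Irak1 shares 141 with Mir5132 and Mir718 on its own strand. The part of reads from these shared bases was not tested.

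Irak1, the more abundant kinase (chromosome X, 74013914 to 74023921), was at 24.1, 24.4 and 24.3 FPKM with Sema4D, against 22.1, 22.8 and 20.9 FPKM in control. Its groups did not overlap, but the rise was small (0.14, SE 0.040, 95% interval 0.05 to 0.23, limma adjusted p = 0.019). The call was lost after quantile normalization (0.07, adjusted p = 0.166), without control replicate 3 (adjusted p = 0.0633) and without Sema4D replicate 2 (adjusted p = 0.0547), and the alternatives together spanned 0.0148 to 0.166. Irak4, the kinase that starts the relay (chromosome 15, 94543613 to 94568317), had 5.14, 5.26 and 5.81 FPKM with Sema4D, against 4.84, 4.90 and 4.53 FPKM in control. Its groups did not overlap either, and it was not past the threshold (0.15, 95% interval 0.02 to 0.29, adjusted p = 0.0663). Irak4 shares 395 exon bases with Twf1 on the opposite strand, and Twf1 was 0.19 higher on the log2 scale (adjusted p = 0.00454).

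Irak2 made up 20.6%, 19.4% and 19.9% of the summed FPKM of Irak1, Irak2 and Irak4 in the Sema4D libraries, against 7.64%, 9.79% and 10.3% in the control libraries. That is a difference of 10.7 percentage points with no overlap (exact two-sided permutation p = 0.1, the smallest possible here). The share of Irak1 was 65.5% ± 0.811 with Sema4D and 74.6% ± 1.07 in control, and that of Irak4 was 14.6% ± 0.786 and 16.2% ± 0.364 (SD, n = 3 each).

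The other family member, Irak3, encodes IRAK-M, known in macrophages as an inhibitor of the cascade. It is not among the 10 genes but bears on the make-up of the family. Irak3 (chromosome 10, 120141648 to 120202130) was at 21.9, 23.5 and 20.6 FPKM with Sema4D, against 1.88, 2.74 and 2.67 FPKM in control (2.76, SE 0.1, limma adjusted p = 1.6e-07). With Sema4D its values lay just under those of Irak1, while in control they were far below them. Of the summed FPKM of all 4 family members, Irak3 made up 37.2% ± 1.77 with Sema4D and 7.61% ± 1.38 in control, and Irak1 41.1% ± 0.647 and 68.9% ± 2.02 (SD, n = 3 each). With Irak3 in the sum, Irak2 made up 12.5% ± 0.594 with Sema4D and 8.54% ± 1.2 in control, a difference of 3.99 points in place of 10.7. Irak3 shares 220 exon bases with other genes, among them Tmbim4 on the opposite strand, which was at 65.3 FPKM with Sema4D and 50.9 FPKM in control.

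Below the kinases, Traf6, the ubiquitin ligase on which the MyD88 relay converges (chromosome 2, 101678420 to 101701668), had 4.73, 4.66 and 4.39 FPKM with Sema4D, against 4.41, 4.00 and 3.70 FPKM in control. The lowest Sema4D value fell just under the highest control value, that of replicate 1. The difference was not past the threshold (0.15, 95% interval 0.00 to 0.31, limma adjusted p = 0.0908). Without control replicate 1 it passed (0.21, adjusted p = 0.0371), and the alternatives together spanned 0.0371 to 0.257. Map3k7, the gene of TAK1, the kinase that activates the IKK complex and the MAP kinases (chromosome 4, 31963492 to 32023470), was at 17.5, 17.7 and 17.8 FPKM with Sema4D, against 14.9, 15.0 and 14.3 FPKM in control. These replicates were tight and apart, so a rise of 0.25 passed (SE 0.036, 95% interval 0.16 to 0.33, adjusted p = 0.000716). Tollip, whose product holds IRAK1 in check at rest and sorts IL-1 receptors for breakdown (chromosome 7, 141881580 to 141902461), was at 26.8, 26.6 and 27.5 FPKM with Sema4D, against 25.6, 24.4 and 26.3 FPKM in control. It did not pass (0.08, 95% interval -0.01 to 0.17, adjusted p = 0.112).

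**Figure D3:**
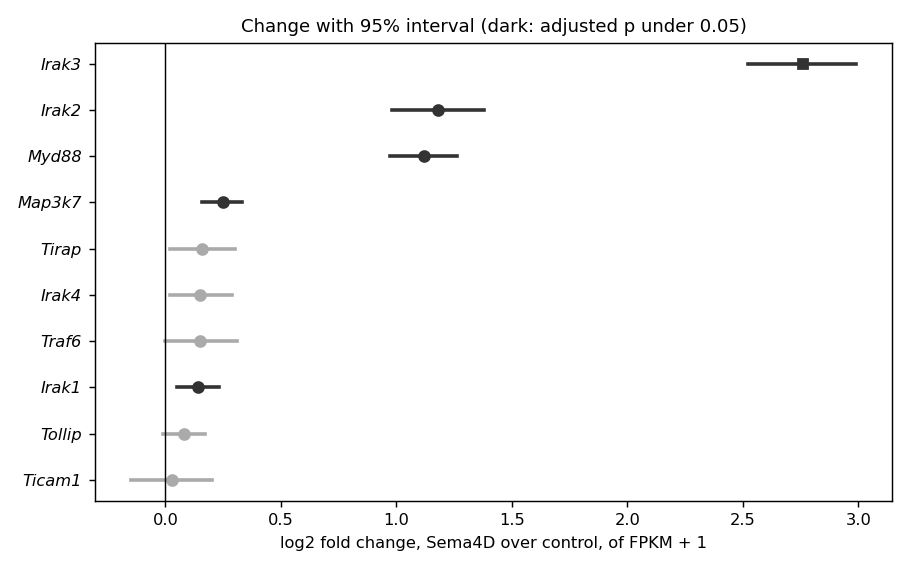
Log2 fold change of FPKM + 1, Sema4D over control (x axis), with its 95% interval from limma for the 9 tested cascade genes (circles) and for Irak3 (square). Irak2 at 1.18 and Myd88 at 1.12 stand clear of the other cascade genes, none of which exceeds 0.25, and Irak3 is at 2.76.

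FPKM are scaled to length, so levels can be ordered between genes. With Sema4D the order of mean FPKM was Myd88, Tollip, Irak1, Map3k7, Ticam1, Irak2, Irak4, Traf6, Tirap and Ticam2. In control it was Tollip, Irak1, Myd88, Map3k7, Ticam1, Irak4, Traf6, Tirap, Irak2 and Ticam2. The ranges of neighbours in the order did not overlap in either group. Myd88 thus stood in place 1 with Sema4D and 3 in control, and Irak2 in place 6 with Sema4D and 9 in control, while the other 8 kept their order among themselves. Of the 9 tested genes 7 had Sema4D values all above the control values, as did 29.6% of all tested genes, and 0 lay wholly below, as did 27% of all tested genes.

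The gene of the cascade with the smallest p was Myd88. Over the 6 libraries the tested genes whose log2 values followed it most closely were Dse, a dermatan sulphate epimerase gene, D930015E06Rik, the proteasome subunit gene Psmd8, the sialyltransferase gene St8sia6 and Tbc1d9, with Pearson's r of 0.9992 to 0.9996. With 2 groups of 3 such values mostly reflect the difference between groups, and 2153 of 11594 genes had an r over 0.9. Dse itself was at 54.7 FPKM with Sema4D and 41.6 FPKM in control. St8sia6 and Tbc1d9, with control means of 0.542 and 0.984 FPKM, passed the filter on low values only through the Sema4D libraries.

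Upstream of the adaptors, receptors were higher with Sema4D more often than lower. Of 20 receptor and co-receptor genes 10 were tested, of which 7 rose and 1 fell (median log2 fold change 0.79), and 2 genes were listed at 0 in all libraries. Thus 80% of the tested receptor genes were called and 70% were higher. Of all tested genes 46.7% were called, 24.5% higher and 22.2% lower, which is the background for this list and those below. Tlr2, a receptor for bacterial lipoproteins that uses TIRAP and MyD88, had 155, 152 and 142 FPKM with Sema4D, against 8.50, 8.80 and 8.41 FPKM in control (3.98, limma adjusted p = 6.37e-11). Il1rl1, the receptor for IL-33, was at 99.9 to 107 FPKM with Sema4D, against 15.6 to 16.6 FPKM in control (2.62). Il1rap, the co-receptor shared by the IL-1 family, rose by 0.89, and Tlr6, a partner of TLR2, fell to 1.18 to 1.44 FPKM, against 1.87 to 2.13 FPKM in control (-0.37, adjusted p = 0.00564). Tlr3 and Tlr4, the receptors of the TRIF route, and Il1r1 also passed, at 0.72, 0.88 and 0.79, named after their values were seen.

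Among partners of TRAF6 and TAK1 and the IKK complex, 9 of 14 tested genes did not pass the threshold, 5 rose and 0 fell (35.7% called, median 0.07). Map3k8, the kinase TPL2, which drives ERK in response to Toll-like receptors, had 5.32, 5.39 and 4.55 FPKM with Sema4D, against 0.773, 0.423 and 0.415 FPKM in control (1.99, limma adjusted p = 1.67e-06). Tifa, a TRAF6-binding adaptor (1.07), and Peli3, a ubiquitin ligase of the Pellino family that acts on IRAK proteins (1.04), also rose. Map3k8 and Peli3, with control means of 0.537 and 0.653 FPKM, passed the filter on low values only through the Sema4D libraries. Map3k14, the NF-kappaB-inducing kinase NIK, and Ikbkb, the catalytic IKK-beta, named after their values were seen, rose by 0.50 and 0.29. With a mean of at least 5 FPKM required, 1 gene of the list rose, Ikbkb, since the other 4 fall under that limit. The TAK1-binding partner genes Tab1, Tab2 and Tab3, named after their values were seen, were not past the threshold, at -0.06, -0.03 and 0.05.

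In the MAP kinase relay below TAK1, 6 of 14 tested genes rose and 1 fell (median 0.12). The share called, 50%, was near the 46.7% of all tested genes, while 42.9% were higher, against 24.5% of all tested genes. The rises by the naming rule were those of Mapk11 (0.87), which encodes a p38 isoform, Map2k1 (0.39), which encodes MEK1, and Mapk8 (0.26), which encodes JNK1. Map2k6, an activator of p38, fell to 0.569 to 0.922 FPKM with Sema4D, against 1.86 to 2.39 FPKM in control (-0.86, limma adjusted p = 0.000255). Mapk11, at a mean of 0.45 FPKM in control, passed the filter on low values only through the Sema4D libraries. It was under that filter when any Sema4D library was left out. Map2k6 passed it only through the control libraries. The 6 rises became 3 without Sema4D replicate 2 or after quantile normalization.

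Although Ticam1 did not pass the threshold, 8 of the 13 genes of the TRIF branch rose and 0 fell (61.5% called, median 0.40). Ikbke, the gene of IKK-epsilon, which phosphorylates IRF3, had 21.0, 20.3 and 20.1 FPKM with Sema4D, against 6.45, 6.67 and 6.40 FPKM in control (1.52, limma adjusted p = 2.07e-08). Traf3, which links TRIF to those kinases, was at 11.7 to 12.3 FPKM with Sema4D and 5.61 to 6.22 FPKM in control (0.92). Irf7, an interferon-inducible factor, was at 7.02, 13.3 and 6.23 FPKM with Sema4D, against 2.43, 2.73 and 1.99 FPKM in control. Sema4D replicate 2 was far above its group, and Irf7 rose by 1.48 with it and 1.18 without it. Irf3, the factor at the end of the route and named after its values were seen, overlapped between groups (95% interval -0.16 to 0.15). Among the other TRAF genes 4 of 6 rose and 1 fell (83.3% called, 66.7% higher), Traf1 (1.45) and Traf2 (1.32) rising most and Traf4 falling (-0.37). Traf3 was in both lists. Requiring a mean of at least 5 FPKM left 2 rises among the TRAF genes.

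Inhibitors of the cascade rose in 8 of 12 tested cases and fell in 1 (75% called, 66.7% higher, median 0.34). Among the rises Tnfaip3 and Usp18, the latter named after its values were seen, had control means of 0.627 and 0.745 FPKM. Both passed the filter on low values only through the Sema4D libraries. Besides Irak3, Tnfaip3, the gene of the ubiquitin-editing enzyme A20, was at 11.3, 11.3 and 10.7 FPKM with Sema4D, against 0.509, 0.637 and 0.736 FPKM in control (2.90, limma adjusted p = 1.29e-08), and its partner gene Tnip1 rose by 1.90. Trafd1, known as a feedback inhibitor of Toll-like receptor signalling, fell (-0.17, adjusted p = 0.0033). Small rises such as those of Otud7b (0.13), Cyld (0.19) and Il1rn (0.32), named after their values were seen, sat near the threshold, and without control replicate 2 or 3 the count of rises was 5. The groups of Il1rn overlapped.

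At the ends of the routes, all 12 NF-kappaB-controlled readouts rose (median 3.13), led by Cxcl1 (9.27), Icam1 (4.74) and Nfkbiz (4.38). Cxcl1, Il6, Csf3 and Tnf had control means of 0.719, 0, 0 and 0.0314 FPKM, Il6, Csf3 and Tnf being named after their values were seen. They passed the filter on low values only through the Sema4D libraries, so they could hardly be called lower. With any 1 Sema4D library left out 11 rose, and with a mean of at least 5 FPKM required 9 did. Of 7 tested readouts of IRF3 and interferon 5 rose and 1, Ifit2 (-0.29), fell (85.7% called, 71.4% higher, median 2.23). Ccl5 (7.84), which NF-kappaB also controls, and Cxcl10 (4.5) rose most. With control means of 0.802 and 0.193 FPKM, both passed the filter on low values only through the Sema4D libraries. Isg15 was at 22.8, 50.1 and 17.8 FPKM with Sema4D, against 5.04, 4.43 and 3.95 FPKM in control. Its change was 2.38, and 1.96 without Sema4D replicate 2, the highest library. Ifnb1, the interferon-beta gene, named after its values were seen, was listed at 0 in all 6 libraries.

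**Figure D4:**
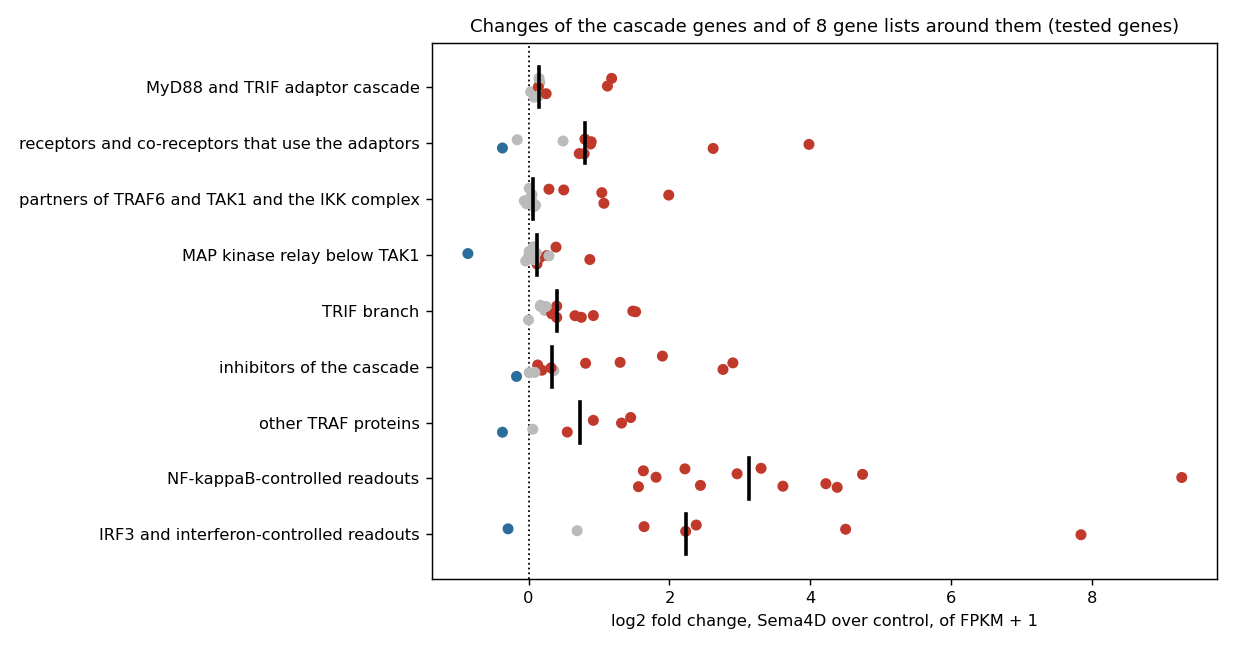
Log2 fold change of FPKM + 1, Sema4D over control (x axis), of every tested gene of the cascade and of 8 lists around it (rows, with points shifted up or down at random to separate them). Red points rose, blue points fell and grey points did not pass limma's adjusted threshold of 0.05, black bars are medians and the dotted line is the median of all tested genes. The cascade's median is 0.15, that of the receptors 0.79 and that of the NF-kappaB readouts 3.13.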

How the data were processed

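The deposited values are FPKM that the authors made. The submitters' processing notes name TopHat2 (2.0.13), Bowtie2 (2.2.3), SAMtools (0.1.19), Cufflinks (2.2.1) and the build mm10, without roles. No source used here gives the annotation, strand setting, filters or scaling across libraries. A count test was not run, as FPKM values are not counts. Low values of 1681 long genes with 1 transcript fell on whole fragments within 0.15 in 80.6% to 86.6% of cases, too few to recover counts but enough to estimate depth.

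After transformation to log2(FPKM + 1), limma 3.58.1 in R 4.3.3 was run (lmFit and eBayes with trend, two-sided tests, no replicate block) on the 11603 genes averaging 1 FPKM or more, and p-values were adjusted over all of them by Benjamini-Hochberg. A gene with a mean under 1 FPKM in 1 group could pass this filter only through the other group, which largely fixed the direction of any call. Tested on data simulated for Sema4D against control over 11603 genes, of which 200 were changed, the fit recovered 56% of genes changed by 1.25-fold and 96% of those changed by 2-fold. In the real data 46.7% of genes were called, so the adjusted threshold differs and these recovery shares do not carry over. Shares were compared by exact permutation in scipy 1.17.1, and figures were drawn with matplotlib 3.10.9. Alternatives were another pseudocount, filter, scaling or variance trend, a replicate block, and leaving out each library. In each pair of libraries 0.112% to 0.293% of tested genes had the same value, so all 6 were counted. Positions and promoter sequences are RefSeq's on GRCm38.p6, and exon overlaps are from GENCODE M21.

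The 10 genes and the lists were chosen with earlier results of these data known. Of each list the 3 largest rises and 3 largest falls past the threshold with separate groups were named, and the 5 genes most like the gene with the smallest p. Other names were chosen after their values were seen.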

Additional observations from a re-analysis of the deposited data

How the results depend on the processing

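Myd88, Irak2 and Map3k7 stayed past the threshold in all 13 alternatives, with log2 fold changes of 1.06 to 1.17, 1.08 to 1.42 and 0.18 to 0.26. Irak1 passed in 10 of 13, Tirap in 2 of 12 and Traf6 in 1 of 12, while Irak4, Tollip and Ticam1 passed in 0 of 13. With 1 library left out, the cascade held 3 to 5 rises and 0 falls, and the log2 fold change of Ticam1 ranged from -0.06 to 0.08. After quantile normalization it was -0.03. The cause was not tested. Of all tested genes 2841 were higher and 2581 lower, so 52.4% of calls were higher, against 38.8% (2172 higher and 3420 lower) after quantile normalization.

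Requiring a mean of 5 FPKM left 0 falls among receptors, 1 rise among TRAF6 and TAK1 partners, 0 falls in the MAP kinase relay and 2 rises among other TRAF genes, since fewer genes were tested. TRAF6 and TAK1 partners had 1 fall with no filter and 1 fall after quantile normalization, and the MAP kinase relay had 3 rises after quantile normalization. With 1 library left out, rises in the MAP kinase relay ranged from 3 to 6 and those of the inhibitors from 5 to 10. For the shares these ranges were 9.9 to 11.2 points for Irak2 and -15.6 to -12.3 points for Ticam1.

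The labels do not tell whether replicate numbers pair the libraries, and correlations of deviations with 3 libraries per group cannot decide it. For same-numbered libraries these correlations were 0.14, -0.0809 and -0.0544. Not every library correlated best with its own number: Sema4D replicate 2 did so with control replicate 3 (0.103) and Sema4D replicate 3 with control replicate 2 (0.136). Only these pairs and the same-numbered pair at 0.14 were above 0, and together they use each library once. Whether the libraries are paired in that way was not tested. With a replicate block 2638 genes were higher and 2356 lower, 4 cascade genes rose and 0 fell, and the shares had p = 0.25 by exact sign-flip permutation, the smallest 3 pairs allow. Fragments at the estimated depth were worked out for Ticam2 alone, the cascade gene under the filter on low values. Other low genes named above were not converted to fragments.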
